A study of Mus musculus with 5 samples.

Results

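Glycolysis, lactate and hypoxia response genes were compared between group 3 innate lymphoid cells (ILC3) and CD4 T cells of the mouse. The set holds 34 genes listed by symbol: 2 glucose transporters, the enzymes of glycolysis with their isozymes, lactate dehydrogenases and lactate transporters, pyruvate dehydrogenase and its kinases, a hypoxia-inducible factor with 2 of its targets, and 2 enzymes of the pentose phosphate pathway. All 34 were found among the 27179 genes of the deposited count table, and 33 held enough counts to be tested. The series asks about interleukin-2 from innate lymphoid cells and regulatory T cells of the intestine. ILC3 are lymphocytes without rearranged antigen receptors. They were sorted as CD45+ CD3- CD127+ cells carrying a green fluorescent reporter, and the other group as CD45+ CD3+ CD4+ cells. The labels give the strain as C57BL/6, and the series' text names 3 wild type mice as the source of both groups. A reporter needs a reporter allele, which the labels do not describe, so the full genotype of the mice is not stated here. There were 3 ILC3 libraries and 2 CD4 T libraries. The sources used here give neither the tissue sorted, the ages of the mice nor the mouse behind each library. The p-values therefore measure only how far these libraries spread, and that spread may be technical.

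Glycolysis splits glucose into pyruvate. Lymphocytes that grow or secrete cytokines are known for a high rate of it, and for turning much of the pyruvate into lactate, which leaves the cell with a proton through monocarboxylate transporters. Hypoxia-inducible factor 1 (HIF-1) raises transcription of many of these enzymes. Its alpha subunit, encoded by Hif1a, is set largely by the stability of the protein, which prolyl hydroxylases such as the product of Egln3 mark for destruction when oxygen is present.

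The 5 libraries held 15123715 to 25956023 counts. Immunoglobulin and T cell receptor segment genes took 6.55% to 29.8% of the counts of an ILC3 library, and 17% and 10.2% in CD4 T 1 and 2. Levels below are counts per 1000000 counts (CPM) on the TMM scale, which divides by library size after correcting for such composition. The labels were checked against marker genes. Of 10 ILC3 marker genes 9 were higher in ILC3, with summed levels of 28775 to 31707 CPM against 1057 and 1844 CPM, and Il22 led the list in ILC3 and Id2 in CD4 T. Of 10 CD4 T cell marker genes 6 were lower in ILC3, with sums of 485 to 1064 CPM in ILC3 and 1453 and 3789 CPM in CD4 T 1 and 2, and Cd3g led in both groups. Cd3e, Cd3g, Cd28 and Lat were not called. Cd3e and Cd3g had 54.8 and 279 CPM in CD4 T 1, and 200 and 1305 CPM in CD4 T 2. ILC3 1 (65.3 and 362 CPM) and ILC3 2 (69.8 and 470 CPM) were above CD4 T 1 in both. Cd4 had 142 and 89.7 CPM in CD4 T 1 and 2, below Cd8a (245 and 188 CPM) and Cd8b1 (336 and 431 CPM). So the markers bore out the CD4 T label only in part.

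Markers of other cells also stood apart. Genes of plasmacytoid dendritic cells summed to 184 to 260 CPM in ILC3, led by Bst2, and to 3538 and 2518 CPM in CD4 T 1 and 2, led by Siglech, with 9 of 10 lower in ILC3. Macrophage and monocyte genes, led by Lyz2 in both groups, summed to 177 to 226 CPM in ILC3 and to 2461 and 3179 CPM in CD4 T, with 10 of 12 lower. CD8 T cell genes summed to 0.234 to 5.73 CPM in ILC3, led by Crtam, and to 588 and 641 CPM in CD4 T, led by Cd8b1, with 3 of 5 lower. Conventional dendritic cell genes summed to 104 to 133 CPM in ILC3, led by Batf3, and to 778 and 581 CPM in CD4 T, led by Cd209a, with 2 of 9 higher and 5 lower. Intestinal epithelial genes summed to 11.3 to 15.4 CPM in ILC3, led by Epcam, and to 36.7 and 1946 CPM in CD4 T 1 and 2, with 2 of 11 lower. Epcam led in CD4 T 1 as well, and Lyz1 led in CD4 T 2 alone, at 1874 CPM against 11.5 CPM in CD4 T 1. B and plasma cell genes, led by Jchain, summed to 18966, 101846 and 83507 CPM in ILC3 1 to 3 and to 35154 and 21754 CPM in CD4 T, with none of 10 called. Neutrophil genes reached at most 1.11 CPM in ILC3, led by Retnlg, and 8.12 and 2.48 CPM in CD4 T, led by Csf3r, the 1 gene of 7 that was lower, and 4 of the 7 were at 0 in every library. Erythroid genes, led by Hba-a2, summed to 0.175 to 77.1 CPM in ILC3 and to 48.1 and 0 CPM in CD4 T, with none called. Of 13 cell cycle genes, led by Pcna, none was called, with sums of 217 to 284 CPM in ILC3 and 369 and 574 CPM in CD4 T. Pcna makes up most of the ILC3 sums, while 12 of the 13 had negative log2 differences (ILC3 over CD4 T), with a list median of -2.96. For 9 of the 13 (69.2%) the groups did not overlap, beside 55% of all tested genes. Among all tested genes 6.46% were called higher in ILC3 and 7.21% lower. The part of the transcripts of these marker lists in the results below was not tested.

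Promoters of the called genes that hold the motif are shown first, because the binding core of HIF-1 is short and can be read by eye. That of Ldha, the gene of the set measured highest per kilobase but not a called one, is shown with them. The motif searched was ACGTG on both strands, so that CACGT marks a match on the other strand, and CACGTG, which is also a motif of MYC and USF factors, holds 2 overlapping matches. Windows are the 250 bases before a RefSeq transcription start of build GRCm38.p6, printed 5′ to 3′ on the strand of the gene, with the matches in capitals. They are chr6:82774455-82774704 (minus) for Hk2, chr2:11553930-11554179 and chr2:11502091-11502340 (minus) for the outer and an inner start of Pfkfb3, chr12:54203875-54204124 (minus) for Egln3, chr7:46845554-46845803 (plus) for Ldha and chr12:73907617-73907866 (plus) for Hif1a.
Hk2: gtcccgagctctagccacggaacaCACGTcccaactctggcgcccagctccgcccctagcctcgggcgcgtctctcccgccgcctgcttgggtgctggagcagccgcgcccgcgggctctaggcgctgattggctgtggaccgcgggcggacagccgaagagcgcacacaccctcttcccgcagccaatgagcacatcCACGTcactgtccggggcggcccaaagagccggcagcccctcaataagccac
Pfkfb3 outer start: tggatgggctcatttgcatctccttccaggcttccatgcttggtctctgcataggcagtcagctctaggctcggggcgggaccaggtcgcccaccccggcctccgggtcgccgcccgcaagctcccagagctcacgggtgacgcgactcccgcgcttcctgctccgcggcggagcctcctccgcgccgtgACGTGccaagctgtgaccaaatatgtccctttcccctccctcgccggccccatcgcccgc
Pfkfb3 inner start: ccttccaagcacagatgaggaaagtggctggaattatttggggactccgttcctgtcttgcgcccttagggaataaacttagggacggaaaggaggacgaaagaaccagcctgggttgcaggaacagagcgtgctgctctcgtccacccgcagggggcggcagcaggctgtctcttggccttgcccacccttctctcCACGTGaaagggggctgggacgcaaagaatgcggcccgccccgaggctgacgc
Egln3: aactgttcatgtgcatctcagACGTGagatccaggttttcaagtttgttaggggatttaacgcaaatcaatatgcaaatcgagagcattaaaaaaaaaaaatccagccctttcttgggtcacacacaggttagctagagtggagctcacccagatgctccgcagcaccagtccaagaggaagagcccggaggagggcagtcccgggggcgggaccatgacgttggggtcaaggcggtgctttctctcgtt
Ldha: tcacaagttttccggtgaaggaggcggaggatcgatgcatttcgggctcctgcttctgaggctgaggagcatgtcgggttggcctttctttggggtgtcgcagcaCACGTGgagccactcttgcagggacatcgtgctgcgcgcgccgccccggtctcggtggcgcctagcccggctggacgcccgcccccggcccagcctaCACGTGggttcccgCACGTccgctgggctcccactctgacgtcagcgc
Hif1a: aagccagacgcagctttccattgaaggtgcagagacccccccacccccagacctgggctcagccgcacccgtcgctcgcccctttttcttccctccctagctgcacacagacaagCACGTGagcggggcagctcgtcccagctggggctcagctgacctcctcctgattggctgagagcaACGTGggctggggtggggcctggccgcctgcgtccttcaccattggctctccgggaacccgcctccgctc

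Matches began 226 and 52 bases before the start in Hk2, 60 bases before the outer start of Pfkfb3 and 229 bases before the start of Egln3. Ldha held 5 matches before the start shown, the nearest 34 bases from it, and none before a further start (chr7:46846832-46847081). Hif1a held 3, the nearest 70 bases before it. The windows of Tpi1 and Gpi1 held none. Over the set, 20 of 48 windows (41.7%), in 17 of the 33 genes matched to the promoter table, held the motif, beside 16.6% of all 32851 windows of that length and 18.5% of all genes. Windows of a gene can overlap and count the same site again, as in Aldoa (202 and 126 bases before its starts). The windows of all genes were not limited to expressed genes or matched in base content, so these shares do not test the set. Slc2a3 was not matched. A match is a string of letters, and no binding was measured here.

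The set did not move as a block. Of the 33 tested genes, 4 were higher in ILC3 and 2 were lower (edgeR quasi-likelihood test, Benjamini-Hochberg adjusted p under 0.05 over 12747 genes). Hexokinase 2 (Hk2), the fructose 2,6-bisphosphate regulator Pfkfb3, triose phosphate isomerase (Tpi1) and the prolyl hydroxylase Egln3 rose 2.69-fold to 4.41-fold, while phosphoglucose isomerase (Gpi1) and Hif1a fell by 1.54 and 1.17 on the log2 scale. Among all tested genes 6.46% were called higher and 7.21% lower, against 12.1% and 6.06% of the tested members. With 33 genes these shares differ by few genes, and a share near the background is not a result about the members. The libraries of the 2 groups did not overlap for 18 of the 33 (54.5%), beside 55% of all tested genes. Of the 18, 12 were higher in ILC3 and 6 lower, a split that was not counted over all tested genes. By sign alone 17 of the 33 log2 differences were positive, as were 47.4% of those of all tested genes. The median log2 difference was 0.18 for the tested members and -0.10 for all tested genes. Without scaling beyond library size the medians were -0.33 and -0.60, so the members' median changed sign while its distance from that of all genes was 0.29 and 0.27. Lists of bulk RNA cannot tell fewer cells of a type from less RNA per cell.

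**Figure D1:**
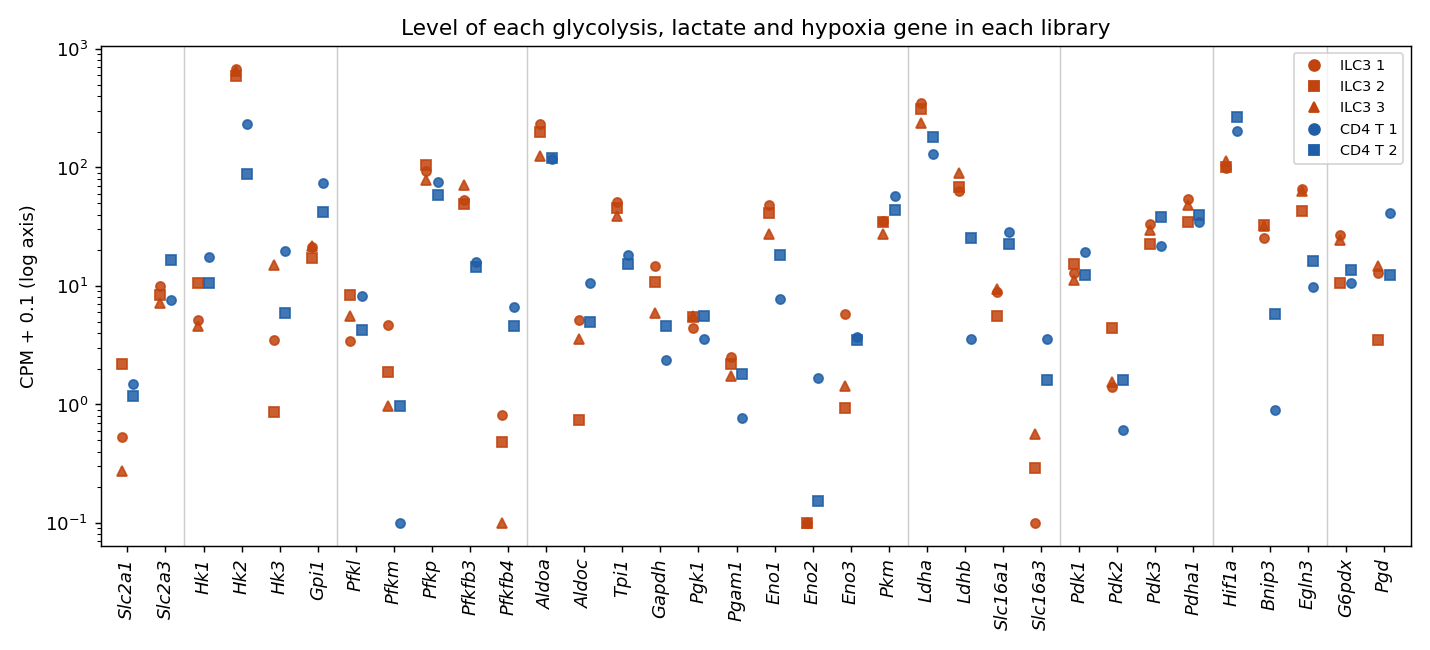
Level of each of the 34 genes in each library, as CPM plus 0.1 on a log axis, with circles, squares and triangles for replicates 1, 2 and 3, ILC3 in orange and CD4 T in blue, and grey lines between the role groups. Hk2, Ldha and Aldoa lie highest in ILC3, and Eno2 is at 0 in all 3 ILC3 libraries.

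The 2 glucose transporters were measured at low levels and neither was called. Slc2a1, which encodes GLUT1, the transporter that activated lymphocytes are known to raise, had 0.175 to 2.11 CPM in ILC3 and 1.39 and 1.08 CPM in CD4 T. Slc2a3, which encodes GLUT3, had 7.07 to 9.99 CPM in ILC3 and 7.52 and 16.5 CPM in CD4 T. The groups overlapped for both, with log2 differences of -0.45 (SE 1.45) and -0.51 (SE 0.57). The sign of Slc2a1 turned without ILC3 3 (0.0363) and that of Slc2a3 without CD4 T 2 (0.178), so no direction can be given for either.

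Hexokinases trap glucose in the cell as glucose 6-phosphate, and Hk2 is the inducible form. Hk2 (GeneID 15277, chromosome 6, 82725025 to 82774454) had 682, 595 and 658 CPM in ILC3 1 to 3 and 231 and 88.2 CPM in CD4 T 1 and 2. All 3 ILC3 libraries were above both CD4 T libraries, and the CD4 T libraries stood further apart from each other than the ILC3 libraries did. The ILC3 mean was 645 ± 45.3 CPM (SD, n = 3) and the CD4 T mean 159 ± 101 CPM (SD, n = 2). The fold was 4.04 (log2 difference 2.01 ± 0.46 SE, adjusted p = 0.0378 by edgeR). Significance was lost without ILC3 1, 2 or 3 (edgeR adjusted p = 0.0951, 0.0921 and 0.0859) and with library size alone (0.0873). The log2 difference was 2.87 without CD4 T 1 and 1.5 without CD4 T 2.

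Hk1, the housekeeping form, had 4.5 to 10.5 CPM in ILC3 and 17.6 and 10.5 CPM in CD4 T, and Hk3 had 0.768 to 15.1 CPM and 19.5 and 5.82 CPM. Neither was called. Within a library, and per kilobase of transcript, Hk2 exceeded Hk1 104-fold, 43.8-fold and 113-fold in ILC3 1 to 3 and 10.1-fold and 6.53-fold in CD4 T 1 and 2. The 3 ILC3 ratios lay above both CD4 T ratios. The difference of the log2 ratio of Hk1 to Hk2 was -3.30, with an exact permutation p = 0.1, which is the smallest that 3 against 2 libraries allow, and 0.4 after Benjamini-Hochberg adjustment over 8 ratios.

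Gpi1 encodes glucose 6-phosphate isomerase, which makes fructose 6-phosphate. It (GeneID 14751, chromosome 7, 34201327 to 34230336) had 21.2, 17.2 and 21.8 CPM in ILC3 1 to 3 and 74.5 and 41.9 CPM in CD4 T 1 and 2. Both CD4 T libraries were above every ILC3 library. The means were 20.1 ± 2.5 CPM (SD, n = 3) in ILC3 and 58.2 ± 23.1 CPM (SD, n = 2) in CD4 T, which is a difference of -1.54 ± 0.35 (SE) in log2 units, with adjusted p = 0.0378 by edgeR. It no longer passed without ILC3 1, 2 or 3 (edgeR adjusted p = 0.0968, 0.109 and 0.0864) and without CD4 T 1 (0.143, log2 difference -1.06). So the step after Hk2 was lower in the same libraries in which Hk2 was higher.

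Phosphofructokinase commits hexose to glycolysis, and fructose 2,6-bisphosphate is its strongest activator. Pfkfb3, which makes that activator, was the member with the lowest adjusted p. Pfkfb3 (GeneID 170768, chromosome 2, 11471430 to 11554071) had 52.9, 49.1 and 71.4 CPM in ILC3 1 to 3 and 15.9 and 14.5 CPM in CD4 T 1 and 2. Every ILC3 library was above both CD4 T libraries, which lay close together. The means were 57.8 ± 11.9 CPM (SD, n = 3) and 15.2 ± 1.03 CPM (SD, n = 2), a 3.80-fold difference (log2 1.92 ± 0.33 SE, adjusted p = 0.0166 by edgeR). The call was lost without ILC3 1, 2 or 3 (edgeR adjusted p = 0.055, 0.0511 and 0.0559), without CD4 T 1 (0.0522) and with library size alone (0.0577).

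The other genes of this step did not pass. Pfkfb4, another enzyme that makes the activator, had 0.721, 0.384 and 0 CPM in ILC3 and 6.57 and 4.53 CPM in CD4 T, so the groups did not overlap and the direction was opposite to that of Pfkfb3. Its log2 difference was -3.87 ± 1.53 (SE), with adjusted p = 0.133 by edgeR. Of the 3 phosphofructokinase isozymes, the platelet form Pfkp was the most abundant, with 78.5 to 105 CPM in ILC3 and 74.6 and 58.8 CPM in CD4 T. The liver form Pfkl had 3.32 to 8.32 CPM in ILC3 and 8.16 and 4.15 CPM in CD4 T. The muscle form Pfkm had 0.876 to 4.58 CPM in ILC3, and 0 and 0.863 CPM in CD4 T, and it overlaps Senp1, which held 1652 counts to its own 186. Per kilobase, Pfkp exceeded Pfkl 8.22-fold to 25.1-fold in the 5 libraries, and the groups overlapped in this ratio.

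**Figure D2:**
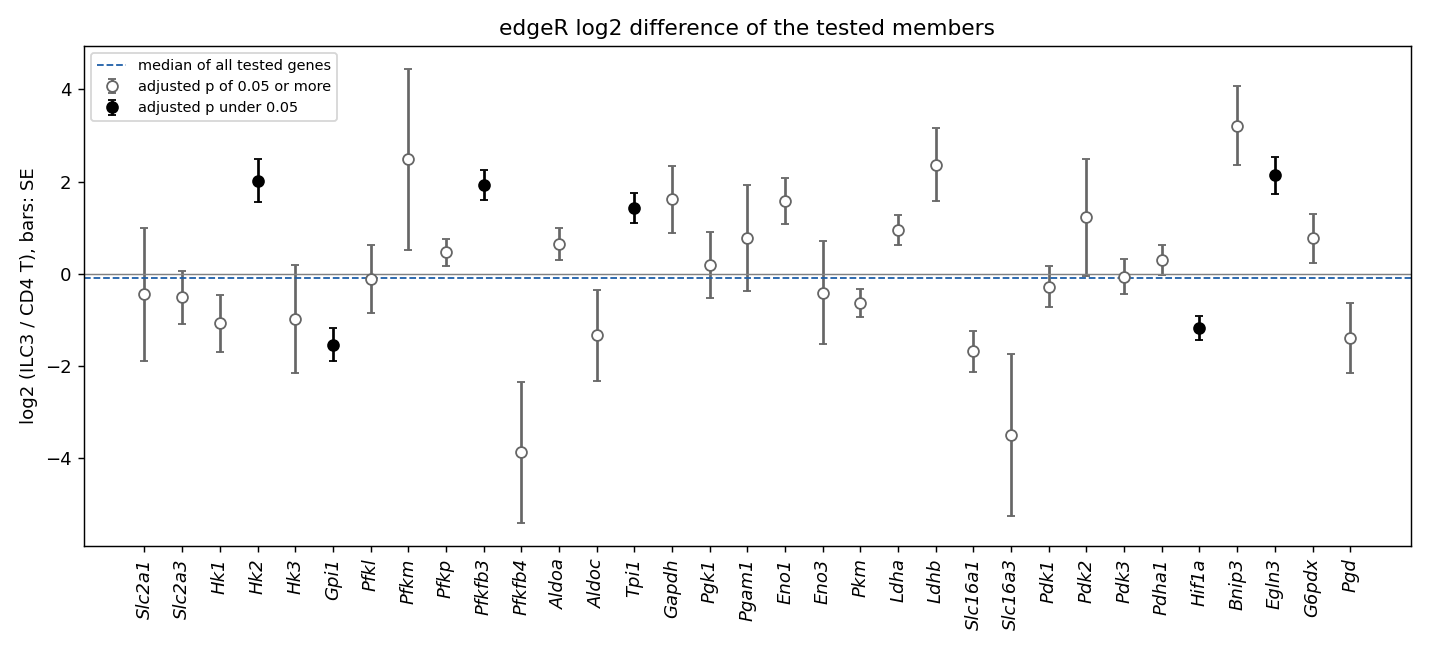
Log2 difference (ILC3 over CD4 T) of the 33 tested genes from the edgeR fit, with bars of 1 SE, filled points for an adjusted p under 0.05 and a dashed line at the median of all 12747 tested genes. Hk2, Pfkfb3, Tpi1 and Egln3 lie above 0 and Gpi1 and Hif1a below, and genes with few counts such as Pfkm and Slc16a3 have the widest bars.

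The steps from aldolase to pyruvate kinase gave 1 called gene among 9 tested. It was higher (11.1%, beside 6.46% of all tested genes), and none was lower (beside 7.21%), so the share rests on 1 gene. Tpi1 (GeneID 21991, chromosome 6, 124810586 to 124814158) encodes the isomerase that interconverts the triose phosphates made by aldolase. It had 51.5, 45.7 and 39.1 CPM in ILC3 1 to 3 and 18.3 and 15.3 CPM in CD4 T 1 and 2. The 3 ILC3 libraries were above both CD4 T libraries. The means were 45.4 ± 6.22 CPM (SD, n = 3) and 16.8 ± 2.13 CPM (SD, n = 2), a 2.69-fold difference (log2 1.43 ± 0.32 SE, adjusted p = 0.0354 by edgeR). Significance was lost without each of the 5 libraries in turn (edgeR adjusted p from 0.0569 to 0.104) and with library size alone (0.178).

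Eno1, the main enolase of most cells, had 47.7, 40.9 and 27.6 CPM in ILC3 1 to 3 and 7.64 and 18.2 CPM in CD4 T 1 and 2. The groups did not overlap, with CD4 T 1 lowest. The log2 difference was 1.58 (SE 0.50) and missed the threshold (edgeR adjusted p = 0.0767), and without CD4 T 2 it was 2.35 (edgeR adjusted p = 0.0328). Eno3, the muscle enolase, had 0.832 to 5.73 CPM in ILC3 and 3.64 and 3.40 CPM in CD4 T, and overlaps Pfn1, which held 99026 counts to its own 350. Eno2, the neuronal enolase, had no count in ILC3, and 40 counts and 1 count in CD4 T 1 and 2. Against a floor of 3 counts over the ILC3 libraries, Eno2 was at least 18.9-fold lower in ILC3, a value that rests on CD4 T 1, and it was not tested. Per kilobase, Eno1 exceeded Eno3 6.4-fold, 36.6-fold and 15.5-fold in ILC3 1 to 3 and 1.61-fold and 4.1-fold in CD4 T (exact permutation p = 0.2).

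Aldoa, the aldolase of most tissues, had 232, 200 and 124 CPM in ILC3 1 to 3 and 118 and 119 CPM in CD4 T. The ILC3 libraries were all higher, ILC3 3 only just. The log2 difference was 0.64 ± 0.34 (SE), with adjusted p = 0.243 by edgeR. Aldoc, the brain aldolase, had 0.64 to 5.08 CPM in ILC3 and 10.6 and 4.91 CPM in CD4 T, and the groups overlapped. Pkm, the last step, had 35.4, 34.4 and 27.6 CPM in ILC3 and 56.8 and 43.8 CPM in CD4 T. Those groups did not overlap, and the log2 difference of -0.64 (SE 0.30) was not called (edgeR adjusted p = 0.193).

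Gapdh, Pgk1 and Pgam1 were measured far below the enzymes on either side of them. Gapdh, usually among the most abundant messages of a cell, had 14.6, 10.7 and 5.78 CPM in ILC3 1 to 3 and 2.3 and 4.48 CPM in CD4 T. Its groups did not overlap, and the log2 difference was 1.61 ± 0.73 (SE), with adjusted p = 0.177 by edgeR. Pgk1 had 4.33 to 5.49 CPM in ILC3 and 3.44 and 5.45 CPM in CD4 T, and Pgam1 had 1.64 to 2.42 CPM and 0.673 and 1.73 CPM. A search of GENCODE vM21 transcripts found 73 other genes at least 95% identical to the Gapdh transcript over 500 bases or more. Of these copies 70 were annotated pseudogenes. Pgk1 had 2 such copies in pseudogenes, as did Eno1 and Ldha, Bnip3 had 3, and Gpi1, Pgam1, Pkm and Ldhb had 1 each. The sources used here do not say how the authors counted reads that match several places, so the levels of these genes are uncertain, and the part of such reads was not tested.

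The 19 enzymes from hexokinase to lactate dehydrogenase summed to 1624, 1460 and 1347 CPM in ILC3 1 to 3 and to 781 and 631 CPM in CD4 T 1 and 2. Hk2 made up 42.0%, 40.7% and 48.8% of these counts in ILC3 1 to 3 and 29.5% and 14.0% in CD4 T. Its transcript is long, and per kilobase its share was 19.4%, 18.8% and 24.2% in ILC3 1 to 3, against 14.1% and 5.46% in CD4 T 1 and 2. Per kilobase of transcript Ldha was the first and Aldoa the second of the 34 genes by level in both groups. Hk2 was next in ILC3 and ranked 4 in CD4 T, where Hif1a ranked 3. The sums, shares and ranks take Gapdh, Pgk1, Pgam1 and other genes with near-identical copies at their measured levels, which are uncertain. So they describe these counts and not the make-up of the glycolytic message in the cells.

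Lactate dehydrogenase interconverts pyruvate and lactate. Its A subunit favours lactate and its B subunit favours pyruvate. Ldha had 350, 314 and 237 CPM in ILC3 1 to 3 and 130 and 179 CPM in CD4 T 1 and 2. All ILC3 libraries were higher, and the log2 difference of 0.96 (SE 0.32) did not pass (edgeR adjusted p = 0.0909). Ldhb had 63.2, 68 and 90.2 CPM in ILC3 and 3.48 and 25.1 CPM in CD4 T. Here too every ILC3 library was higher, and the CD4 T libraries differed widely from each other. The log2 difference was 2.37 ± 0.79 (SE), with adjusted p = 0.0894 by edgeR. It was 4.41 without CD4 T 2 and 1.56 without CD4 T 1. Ldhb passed without CD4 T 2 (edgeR adjusted p = 0.00582).

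The proportion of the subunits was then read within each library. Per kilobase, Ldha exceeded Ldhb 3.98-fold, 3.32-fold and 1.89-fold in ILC3 1 to 3 and 26.6-fold and 5.14-fold in CD4 T 1 and 2. The ILC3 libraries had the smaller ratios, without overlap. The mean log2 ratio was 1.55 ± 0.56 (SD, n = 3) in ILC3 and 3.55 ± 1.68 (SD, n = 2) in CD4 T, a difference of -2.00 (exact permutation p = 0.1, the smallest possible, and 0.4 after adjustment).

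The 2 lactate transporters of the set were listed lower in ILC3. Slc16a1, which encodes MCT1, had 8.83, 5.44 and 9.40 CPM in ILC3 1 to 3 and 28.3 and 22.4 CPM in CD4 T 1 and 2. Both CD4 T libraries were well above all ILC3 libraries, and the log2 difference of -1.69 (SE 0.45) just missed the threshold (edgeR adjusted p = 0.0535). DESeq2 and limma-voom called it (adjusted p = 0.0042 and 0.0323). Slc16a3, which encodes MCT4, the exporter of strongly glycolytic cells and a known HIF-1 target, had 0, 0.192 and 0.467 CPM in ILC3 and 3.44 and 1.51 CPM in CD4 T. The groups did not overlap, on 0 to 8 counts in an ILC3 library, and Slc16a3 was not called (edgeR adjusted p = 0.217). It overlaps Csnk1d, which held 4153 counts to its own 126. The exact permutation p of the ratio of Slc16a3 to Slc16a1 was 0.3.

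**Figure D3:**
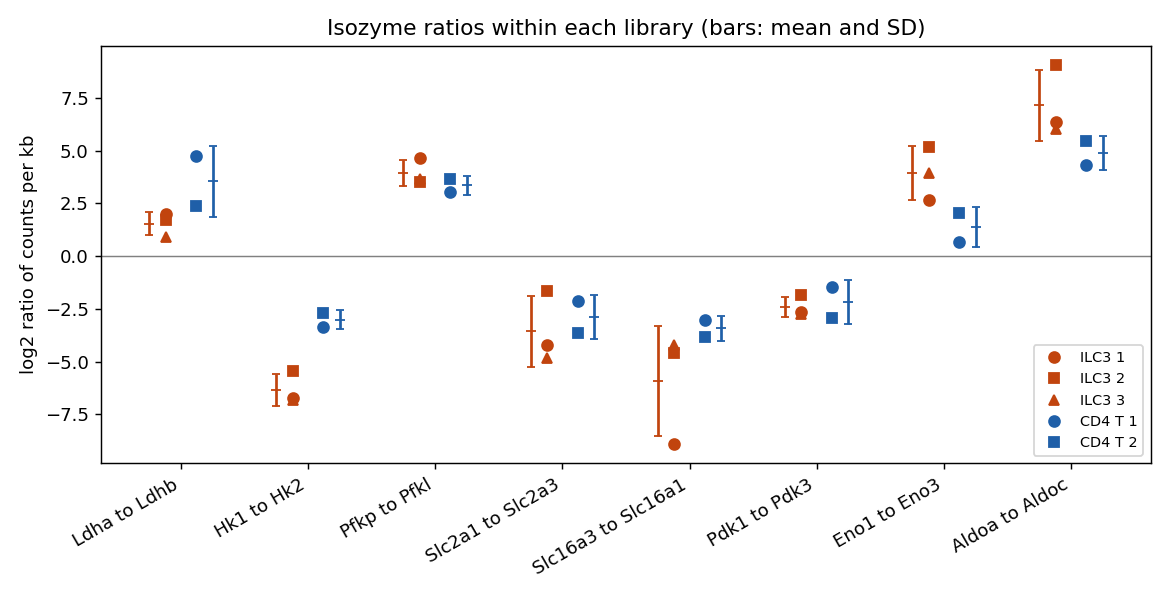
Log2 ratio of counts per kilobase for 8 isozyme pairs in each library, ILC3 in orange and CD4 T in blue, with the group mean and SD drawn beside the points. The libraries of the groups separate for Ldha to Ldhb, Hk1 to Hk2, Slc16a3 to Slc16a1, Eno1 to Eno3 and Aldoa to Aldoc, and overlap for the other 3 pairs.

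Pyruvate enters the mitochondrion and is burned through the pyruvate dehydrogenase complex, which its kinases switch off. None of the 4 genes was called, beside 6.46% of all tested genes called higher and 7.21% called lower. All 4 overlapped between groups, while 55% of all tested genes did not. With 4 genes these counts are not a result about this step. Pdha1, the catalytic subunit, had 34.5 to 54.6 CPM in ILC3 and 34.8 and 39.7 CPM in CD4 T. Among the kinases, Pdk3 was the most abundant, with 22.5 to 33.2 CPM in ILC3 and 21.5 and 38.0 CPM in CD4 T. Pdk1, a known HIF-1 target, had 11 to 15.4 CPM in ILC3 and 19.4 and 12.3 CPM in CD4 T, and Pdk2 had 1.30 to 4.35 CPM and 0.515 and 1.51 CPM.

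The groups did not overlap for the 3 genes of the hypoxia response, nor for 55% of all tested genes. The 3 split in direction. Hif1a (GeneID 15251, chromosome 12, 73901324 to 73947554) had 98.7, 102 and 113 CPM in ILC3 1 to 3 and 204 and 267 CPM in CD4 T 1 and 2. Both CD4 T libraries were above the ILC3 libraries, which lay within a narrow range. The means were 105 ± 7.85 CPM (SD, n = 3) and 236 ± 44.0 CPM (SD, n = 2), which is a difference of -1.17 ± 0.27 (SE) in log2 units, with adjusted p = 0.0368 by edgeR. It no longer passed without ILC3 1, 2 or 3 (edgeR adjusted p = 0.104, 0.114 and 0.0928). The 2 libraries that were high in Hif1a were also those high in the plasmacytoid dendritic cell and macrophage genes, and the part of those cells in the difference was not tested.

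Egln3 (GeneID 112407, chromosome 12, 54178981 to 54203874), a target of HIF-1 whose product hydroxylates the alpha subunit, had 65.4, 42.8 and 63.4 CPM in ILC3 1 to 3 and 9.74 and 16.2 CPM in CD4 T 1 and 2. Every ILC3 library was higher than both CD4 T libraries. The means were 57.2 ± 12.5 CPM (SD, n = 3) and 13.0 ± 4.55 CPM (SD, n = 2), a 4.41-fold difference (log2 2.14 ± 0.40 SE, adjusted p = 0.0210 by edgeR). The call was lost without ILC3 1 or 3 (edgeR adjusted p = 0.0720 and 0.0627), without CD4 T 1 (0.0713) and with library size alone (0.0615).

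Bnip3, a mitophagy receptor and HIF-1 target, had 25.1, 32.4 and 31.8 CPM in ILC3 1 to 3 and 0.792 and 5.66 CPM in CD4 T 1 and 2. The groups lay far apart, and the CD4 T libraries also differed from each other. The log2 difference of 3.21 (SE 0.85) just missed the threshold (edgeR adjusted p = 0.0529). It was 2.39 without CD4 T 1 and 5.23 without CD4 T 2, and passed in both cases (edgeR adjusted p = 0.0424 and 0.00635).

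Glucose 6-phosphate dehydrogenase (G6pdx) and phosphogluconate dehydrogenase (Pgd) make NADPH in the oxidative branch of the pentose phosphate pathway. G6pdx had 10.4 to 26.8 CPM in ILC3 and 10.6 and 13.5 CPM in CD4 T, and overlaps Ikbkg, which held 1839 counts to its own 1837. Pgd had 3.39 to 14.7 CPM in ILC3 and 41.2 and 12.2 CPM in CD4 T. The groups overlapped for both and neither was called.

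The other genes of these pathways were read from 5 further lists. Of 32 HIF components and hypoxia targets, 28 were tested, 6 were higher (21.4%, beside 6.46% of all tested genes) and 1 was lower (3.57%, beside 7.21%), with a median log2 difference of 0.49 beside -0.10 for all tested genes. Vegfa, the angiogenic factor, had 229, 210 and 276 CPM in ILC3 and 29.2 and 18.8 CPM in CD4 T. The groups lay far apart, and the 9.92-fold difference (log2 3.31 ± 0.36 SE, adjusted p = 0.0045 by edgeR) was called under all 15 alternative settings. Ero1a, an oxidoreductase of the endoplasmic reticulum, had 168, 155 and 140 CPM in ILC3 and 14.1 and 38.6 CPM in CD4 T (log2 2.55 ± 0.49 SE, adjusted p = 0.0224 by edgeR). Adm, which encodes adrenomedullin, had 4.93 to 8.94 CPM in ILC3 and 3 counts and 1 count in CD4 T (log2 6.22 ± 1.09 SE, adjusted p = 0.0171 by edgeR). Their calls were lost without ILC3 1 or 3 for both genes (edgeR adjusted p = 0.0688 and 0.0533 for Ero1a, 0.0628 and 0.0547 for Adm), without ILC3 2 for Ero1a (0.0649) and without CD4 T 1 for Adm (0.0521). The other 3 higher genes were the transcriptional repressor Bhlhe40, the collagen lysyl hydroxylase Plod2 and Ankzf1. They lie outside the naming rule and were named after their values were seen. Their log2 differences were 1.37 ± 0.30, 2.60 ± 0.67 and 5.69 ± 1.24 (SE), with adjusted p = 0.0327, 0.0499 and 0.0323 by edgeR. Plod2 passed only just, and Ankzf1 had 5 counts and 1 count in CD4 T 1 and 2. The alternative settings were not read for these 3 genes.

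Mxi1, a MAX partner that opposes MYC and a known HIF-1 target, was the lower gene of that list, with 14.7, 7.1 and 12.3 CPM in ILC3 and 44.2 and 69.1 CPM in CD4 T. The groups did not overlap (log2 difference -2.32 ± 0.42 SE, adjusted p = 0.0195 by edgeR). Significance was lost without ILC3 1, 2 or 3 (edgeR adjusted p = 0.0502, 0.0605 and 0.0586) and without CD4 T 2 (0.0521). Mxi1 was thus the 1 lower gene beside the 6 higher genes of that list. The 2 CD4 T libraries, which were high in Mxi1, were also high in the plasmacytoid dendritic cell and macrophage genes. The part of those cells in the difference was not tested.

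Of 17 genes of pyruvate entry and lactate transport, 15 were tested, 3 were higher (20%, beside 6.46% of all tested genes) and none was lower (beside 7.21%). The median log2 difference was 1.34, beside -0.10 for all tested genes. Bsg, or basigin, is the chaperone that carries MCT1 and MCT4 to the surface, and it had 406, 414 and 335 CPM in ILC3 and 122 and 182 CPM in CD4 T (log2 1.34 ± 0.32 SE, adjusted p = 0.0410 by edgeR). Emb, or embigin, is the chaperone of MCT2, and had 5833, 5084 and 4972 CPM in ILC3 and 168 and 1044 CPM in CD4 T (log2 3.12 ± 0.78 SE, adjusted p = 0.0464 by edgeR). Slc16a6, a monocarboxylate transporter family member, had 50.7, 45.7 and 28.6 CPM in ILC3 and 2.14 and 9.06 CPM in CD4 T (log2 2.90 ± 0.70 SE, adjusted p = 0.0424 by edgeR). In each the ILC3 libraries were all higher, and the chaperones were higher in the libraries in which Slc16a1 and Slc16a3 were listed lower. All 3 calls were lost without ILC3 1, 2 or 3 (edgeR adjusted p from 0.0679 to 0.112) and with library size alone, and those of Bsg and Slc16a6 also without CD4 T 1 (0.0838 and 0.0729).

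Of 29 other glycolysis and hexose genes only 15 were tested, none was higher and 1 was lower (6.67%, beside 7.21% of all tested genes). It was Adpgk, an ADP-dependent glucokinase, with 27.2, 16.4 and 16.5 CPM in ILC3 and 71.3 and 46.1 CPM in CD4 T (log2 -1.55 ± 0.38 SE, adjusted p = 0.0442 by edgeR). The groups did not overlap, and the call was lost without ILC3 1, 2 or 3 or CD4 T 1 (edgeR adjusted p = 0.0648, 0.12, 0.105 and 0.181). Of 10 other pentose phosphate genes 9 were tested, none was higher and 2 were lower (22.2%, beside 7.21% of all tested genes), a share that rests on 2 genes, both of the non-oxidative branch. Transketolase (Tkt) had 10.2, 5.89 and 4.26 CPM in ILC3 and 97.2 and 27.3 CPM in CD4 T (log2 -3.20 ± 0.63 SE, adjusted p = 0.0247 by edgeR). Ribose 5-phosphate isomerase (Rpia) had 0.541, 1.73 and 1.28 CPM in ILC3 and 29.5 and 7.71 CPM in CD4 T (log2 -3.98 ± 0.86 SE, adjusted p = 0.0318 by edgeR). CD4 T 1 was the highest library for both. Without it the log2 differences were -2.01 and -2.70 and neither passed (edgeR adjusted p = 0.138 and 0.236), nor did they without ILC3 1, 2 or 3 (0.0547 to 0.0849), and limma-voom did not call Rpia (adjusted p = 0.0526).

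Of 18 regulators of glycolytic gene expression 17 were tested, 1 was higher (5.88%, beside 6.46% of all tested genes) and 2 were lower (11.8%, beside 7.21%), shares of 1 and 2 genes. The thioredoxin-interacting protein Txnip and its relative Arrdc4 are both arrestin-family brakes on glucose uptake and both targets of the glucose-sensing MondoA factor. They went opposite ways. Arrdc4 had 841, 687 and 846 CPM in ILC3 and 57.6 and 54.2 CPM in CD4 T, a 14.1-fold difference (log2 3.82 ± 0.33 SE, adjusted p = 0.00217 by edgeR). Txnip had 13.9, 22.1 and 18.8 CPM in ILC3 and 210 and 120 CPM in CD4 T, which is a difference of -3.18 ± 0.37 (SE) in log2 units, with adjusted p = 0.00567 by edgeR. Neither pair of groups overlapped, and both calls held under all 15 alternative settings. Irf4, a factor of activated lymphocytes that is also expressed in dendritic and plasma cells, had 3.14, 5.76 and 10.9 CPM in ILC3 and 66.3 and 51.7 CPM in CD4 T (log2 -3.17 ± 0.55 SE, adjusted p = 0.0167 by edgeR). The call of Irf4 was lost without ILC3 2 (edgeR adjusted p = 0.0654) and without CD4 T 1 (0.0743).

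**Figure D4:**
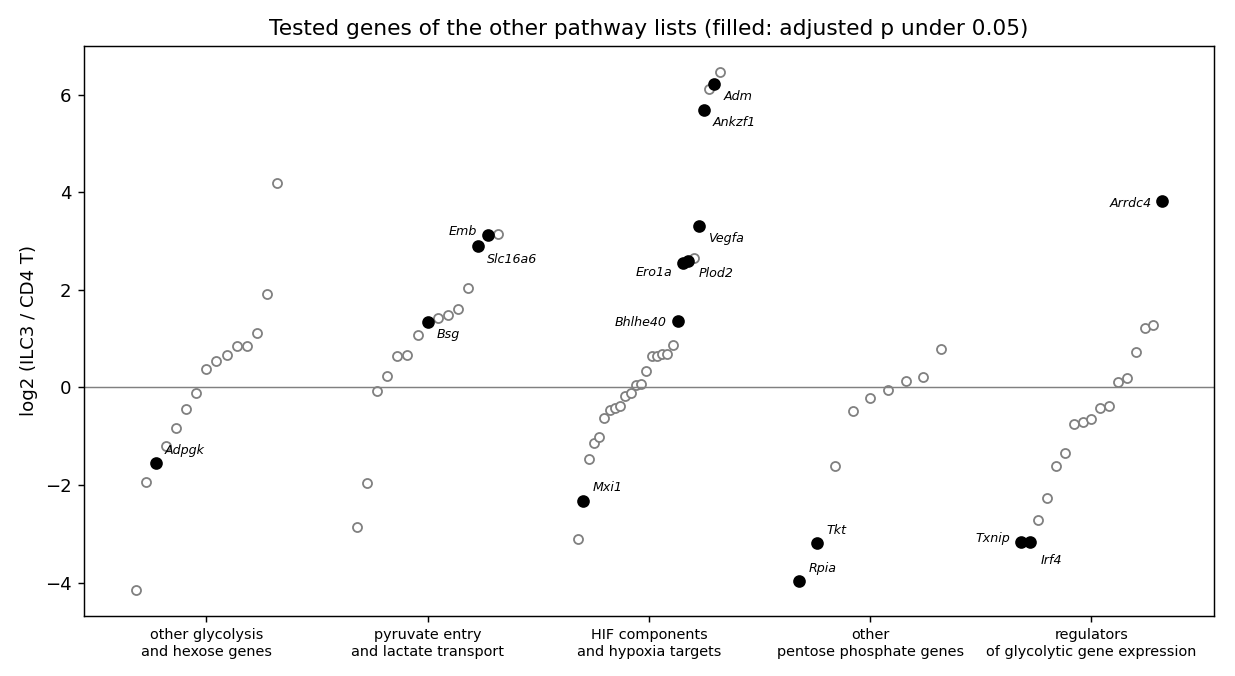
Log2 difference (ILC3 over CD4 T) of every tested gene of the 5 further lists, ordered by size within a list, with called genes filled and named. The called genes of pyruvate entry and lactate transport all lie above 0, those of the pentose phosphate list below, and Arrdc4 and Txnip lie on opposite sides.

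**Figure D5:**
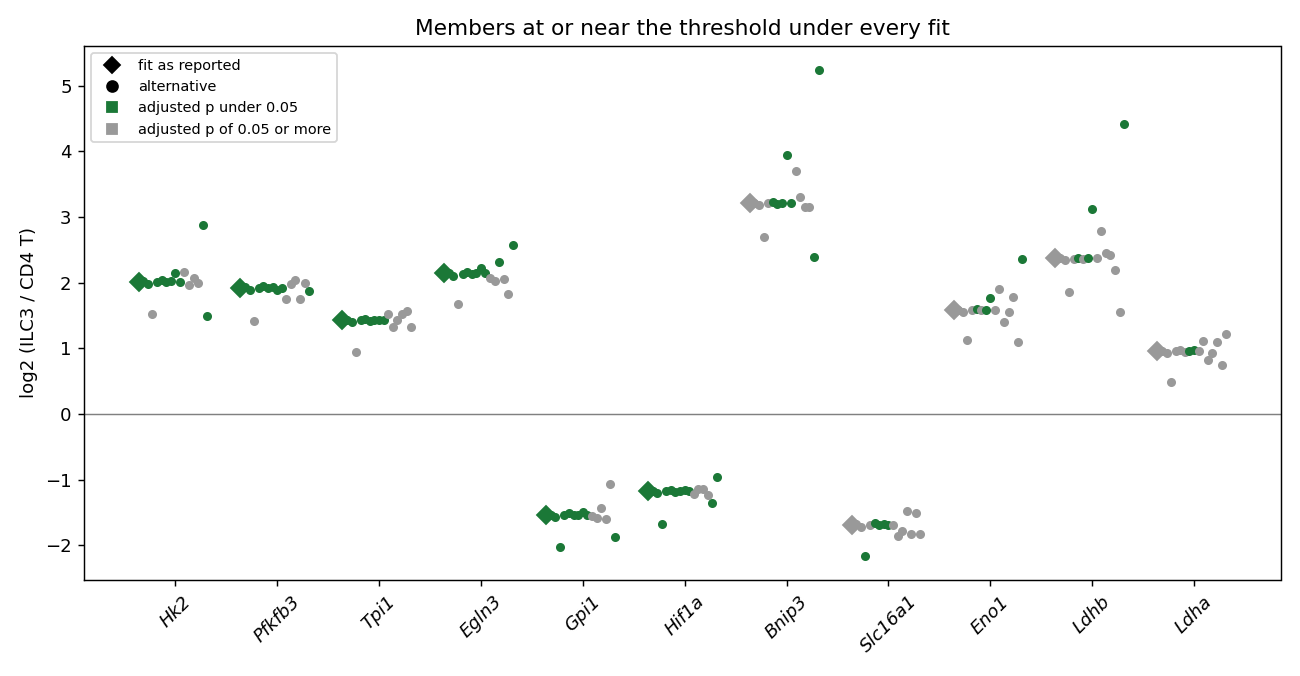
Log2 difference (ILC3 over CD4 T) of 11 genes of the set in the fit as reported (diamonds) and under each of the 15 alternatives (circles), green for an adjusted p under 0.05 and grey otherwise. No point crosses 0, while each of the 6 called genes is grey in at least 4 alternatives.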

How the data were processed

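RNA of 3 ILC3 and 2 CD4 T libraries was made into cDNA, per the labels' protocols, by a SMARTer Ultra Low Input kit (version 4). The values are whole-number counts per gene, deposited by the authors with no normalization. CASAVA 1.8.2, STAR 2.3.0 and build mm10 are named in the submitters' processing notes, while the counter, its gene models and whether it used strand stay unnamed in the sources used here. Of 27179 gene identifiers 25275 were matched to a RefSeq symbol of GRCm38.p6, the NCBI name of the mm10 assembly with patches.

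Counts entered edgeR 4.0.16 (R 4.3.3; filterByExpr by group, TMM, quasi-likelihood F test, 3 residual degrees of freedom, no covariate), with Benjamini-Hochberg adjustment over 12747 genes and calls at an adjusted p under 0.05. TMM factors were 1.07, 0.744 and 0.819 for ILC3 1 to 3 and 1.25 and 1.23 for CD4 T 1 and 2. SE is the log2 difference divided by the square root of F. A count of 0 allows up to 3 counts, or 0.116 to 0.198 CPM of a library before TMM, which covers counting error only. Isozyme ratios used counts per kilobase of the longest coding GENCODE vM21 transcript plus 0.5 counts, and a two-sided exact permutation test over libraries. Near-identical copies were sought with blastn 2.17.0+ among GENCODE vM21 transcripts, so copies outside annotated transcripts were not searched for. Counts of each replicate pair differed by more than counting error (chi-square of 234 or more per degree of freedom, which treats amplified reads as independent molecules), and no pair was merged. Of the 34 genes 18 overlap another RefSeq gene, so without strand some of their counts could belong to the neighbour. The alternatives were other scalings, filters and tests (DESeq2 1.42.0, limma 3.58.1 with voom), a replicate block and each library left out.

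The genes and the further lists were chosen with earlier results of these data known. Every member is named. From each further pathway list up to 3 called genes with the smallest p in each direction are named, and from each marker list the gene with the highest CPM in each group. The markers Cd3e, Cd28, Lat, Cd4 and Cd8a lie outside this rule and were named after their values were seen. Whole-list tests were not made.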

Additional observations from a re-analysis of the deposited data

How the results depend on the processing

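Scaling by DESeq2 size factors or upper quartile, leaving out segment genes, the CPM filter and robust dispersion kept the count of called genes within 1.5 times of 824 higher and 919 lower. Library size alone gave 384 higher and 1502 lower genes, with 0 members higher and a members' median of -0.33. Without a filter 1250 genes and 7 members were higher. The DESeq2 Wald test called 1914 genes higher and 1858 lower, and 8 and 4 members. Limma-voom called 1317 and 1402 genes, and 8 members higher. With a library left out in turn, genes higher ran from 269 to 1712, genes lower from 306 to 960, members higher from 0 to 6 and members lower from 0 to 2. Fewer libraries entered these fits, and the cause of these ranges was not tested.

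The replicate number as a block left 215 genes higher, 305 lower and 0 members in either direction. With the block the calls of Ero1a, Adm, Mxi1, Bsg, Emb, Slc16a6, Adpgk, Tkt and Rpia were lost too. Those of Vegfa, Arrdc4, Txnip and Irf4 held. Same-numbered libraries did not deviate together (correlations of -0.0390 and -0.0415), so the numbers are not shown to pair libraries.

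Signs turned for genes and ratios that were not called. They turned with library size alone for Pfkp (-0.0435), Pgk1 (-0.33) and Pdha1 (-0.164), and with limma-voom for Pdk3 (0.0384). Over the fits that leave out a library, the log2 difference ran from -1.98 to 0.0363 for Slc2a1, -0.97 to 0.178 for Slc2a3, -2.59 to 0.138 for Hk3, -0.50 to 0.457 for Pfkl, -0.105 to 0.57 for Pgk1, -1.70 to 0.0132 for Eno3, -0.55 to 0.0895 for Pdk1 and -0.41 to 0.421 for Pdk3. Likewise the ratio of Slc2a1 to Slc2a3 ran from -1.63 to 0.0553 and that of Pdk1 to Pdk3 from -0.97 to 0.508. In ILC3 1 and 2 there were 2 members at or under the floor of 3 counts, in ILC3 3 there were 3 and in each CD4 T library 1, and for these depth limits the comparison.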
